A study of Mus musculus with 24 samples.

Results

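Expression of 34 type I interferon-stimulated genes was followed in whole mouse lung after bacterial lipopolysaccharide (LPS), with and without an earlier plant extract. The genes were taken by symbol from a deposited table of 78298 genes. Each of the 34 was listed once, and all 34 were among the 17823 genes that reached 1 TPM (transcripts counted relative to the library total and to transcript length) in at least 4 of 24 libraries and were tested. The labels describe wild type C57BL/6 mice aged 7 weeks, and each library is numbered as a biological replicate. Control mice (n = 4) had no extract and, by the treatment protocol, saline in the trachea, although the challenge label of these mice names LPS. The LPS group (n = 5) had no extract and 5 mg/kg of LPS in the trachea. Mice of the remaining 3 groups (n = 5 each) drank aqueous Artemisia argyi (mugwort) extract, abbreviated AEAA, for 28 days and then had the same LPS. The extract was at 0.5 mg/mL in the low, 1 mg/mL in the mid and 1.5 mg/mL in the high dose group. Lungs were collected 8 h after the challenge, and no group had extract without LPS. The study asked whether the extract changes the lung response to LPS.

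Interferon-stimulated genes are switched on when type I interferons, secreted mainly after foreign RNA, DNA or LPS is sensed, bind the receptor made of IFNAR1 and IFNAR2. The kinases JAK1 and TYK2 then activate the factor ISGF3, which contains STAT2 and IRF9 and binds the interferon-stimulated response element (ISRE) in gene promoters. LPS reaches this pathway through TLR4 and the adaptors TRAM and TRIF, while the same receptor drives inflammatory chemokines such as Cxcl2 through MyD88 and NF-kB. Many of these genes also respond to interferon gamma, which acts at gamma-activated sites (GAS).

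Promoter sequence was matched by symbol for 25 of the 34 genes (RefSeq, build GRCm38.p6, windows from 250 bases before to 50 after the start). The ISRE core, searched on both strands as GAAA, any 2 bases and GAAA again, was present for 13 of the 25 genes (52%), against 1079 of 27025 genes in the same table (3.99%). The GAS letters, TTC and GAA with any 3 bases between and also on both strands, were present for 5 of 25 (20%), against 9.55% of all genes in the table. Matches are letters and not measured binding, and the expression files are from another build, so these positions apply to the reference only. The 250 bases before the start are given 5′ to 3′ on the gene's strand, with ISRE cores in capitals. Cxcl10, a chemokine gene with the largest change among the 34 over all challenged groups, holds 1 core.
Cxcl10, chr5:92348890-92349139, strand minus: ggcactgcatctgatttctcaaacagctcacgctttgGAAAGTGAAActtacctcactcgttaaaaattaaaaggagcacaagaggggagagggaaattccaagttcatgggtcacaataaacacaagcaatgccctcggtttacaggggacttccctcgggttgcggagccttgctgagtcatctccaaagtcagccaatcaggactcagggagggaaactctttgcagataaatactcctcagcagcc
Isg15, the gene of a ubiquitin-like protein named for its induction by interferon, holds 3 overlapping cores as 1 run.
Isg15, chr4:156200819-156201068, strand minus: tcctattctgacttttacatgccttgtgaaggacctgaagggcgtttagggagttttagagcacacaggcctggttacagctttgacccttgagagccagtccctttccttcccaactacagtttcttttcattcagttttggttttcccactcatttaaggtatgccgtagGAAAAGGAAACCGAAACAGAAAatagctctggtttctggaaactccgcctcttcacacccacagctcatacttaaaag
The IFIT genes Ifit1, Ifit3 and Ifit3b carry the same pair of cores on the opposite strand and are shown together for that reason.
Ifit1, chr19:34640639-34640888, strand plus: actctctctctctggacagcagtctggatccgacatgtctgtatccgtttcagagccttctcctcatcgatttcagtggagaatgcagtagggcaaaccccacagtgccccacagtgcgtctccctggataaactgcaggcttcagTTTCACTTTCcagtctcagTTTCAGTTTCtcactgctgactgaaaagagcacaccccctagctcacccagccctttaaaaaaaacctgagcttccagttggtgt
Ifit3, chr19:34583279-34583528, strand plus: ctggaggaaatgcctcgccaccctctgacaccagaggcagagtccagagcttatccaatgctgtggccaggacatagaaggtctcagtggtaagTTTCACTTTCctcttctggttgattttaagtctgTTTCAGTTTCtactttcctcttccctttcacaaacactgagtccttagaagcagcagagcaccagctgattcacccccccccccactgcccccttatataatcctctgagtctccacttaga
Ifit3b, chr19:34607707-34607956, strand plus: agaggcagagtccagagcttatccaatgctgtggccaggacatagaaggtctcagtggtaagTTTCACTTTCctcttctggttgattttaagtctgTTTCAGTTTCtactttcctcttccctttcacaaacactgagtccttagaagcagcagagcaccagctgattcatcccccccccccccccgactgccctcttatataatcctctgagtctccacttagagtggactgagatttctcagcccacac
Oasl1 is shown because these letters were absent from its window although its expression was above control in every challenged library.
Oasl1, chr5:114922990-114923239, strand plus: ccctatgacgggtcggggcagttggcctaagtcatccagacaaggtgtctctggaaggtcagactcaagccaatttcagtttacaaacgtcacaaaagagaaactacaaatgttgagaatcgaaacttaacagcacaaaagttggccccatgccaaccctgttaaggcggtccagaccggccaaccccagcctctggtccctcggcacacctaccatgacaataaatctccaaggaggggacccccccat

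Levels are given as scaled TPM, the deposited TPM divided by a factor per library (median of ratios), because the club cell transcript Scgb1a1 took 23.2% to 35.5% of all TPM in control and 2.51% to 8.80% in challenged libraries. The factors were 0.648 to 0.804 in control and 0.891 to 1.27 in challenged libraries. Read depth is unknown, since the table holds TPM only, and 14996 to 16954 genes reached 1 TPM in a library. The labels give male mice, but Xist lay between 39.8 and 74.9 scaled TPM in all 24 libraries and the Y-linked Ddx3y was at 0 in 23. Lung markers were present throughout, as summed alveolar epithelial markers were at least 10226 scaled TPM in every library. In 7 challenged libraries Cxcl2 lay between 0.0712 and 1.07 scaled TPM, near the control range of 0.0779 to 0.356, and in the other 13 it lay between 40.1 and 428. The 7 libraries were LPS replicates 2 and 4, low dose replicate 1, mid dose replicates 1 and 4, and high dose replicates 1 and 4. Summed airway epithelial markers were 22117 to 100244 scaled TPM in these 7 libraries and 38125 to 94701 in the other 13. In control they were 299477 to 565258. Whether the challenge reached the lungs of these 7 cannot be told from the files, which bears on every comparison of a challenged group.

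Over all 20 challenged mice, as the mean of the 4 group means against control, 21 of the 34 interferon-stimulated genes rose and none fell at an adjusted p under 0.05 in limma, where 19.1% of all genes tested rose and 18.7% fell. The median log2 fold change of the 34 was 0.90, against 0.00 for all genes tested. By role, all 5 OAS genes, all 4 RNA or DNA sensors, all 3 signalling genes (Stat2, Irf7, Irf9), all 3 genes of the PARP9, DTX3L and PARP14 group and the chemokine Cxcl10 rose. Of 4 IFIT genes 2 rose (Ifit1, Ifit2), of 7 other antiviral effectors 2 rose (Rsad2, Mx2), of 4 remaining interferon-induced genes 1 rose (Rtp4), and none of the 3 genes of the ISG15 system passed. In 6 genes (Cxcl10, Irf7, Eif2ak2, Oas1a, Oasl1 and Rsad2) every one of the 20 challenged libraries lay above all 4 control libraries, a pattern seen in 3.69% of all genes tested (2.91% lay wholly below control, and no member did). Without the 7 challenged libraries low in Cxcl2, all 34 rose, where 28.5% of all genes did. The 7 libraries were set aside for their response, so this count describes the libraries left and is no independent support. All 34 also rose with the TPM as deposited, where 55.1% of all genes did. With any 1 control left out the count was 9 (replicate 1 or 3), 11 (replicate 2) or 10 (replicate 4), against 21 with all 4.

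**Figure D1:**
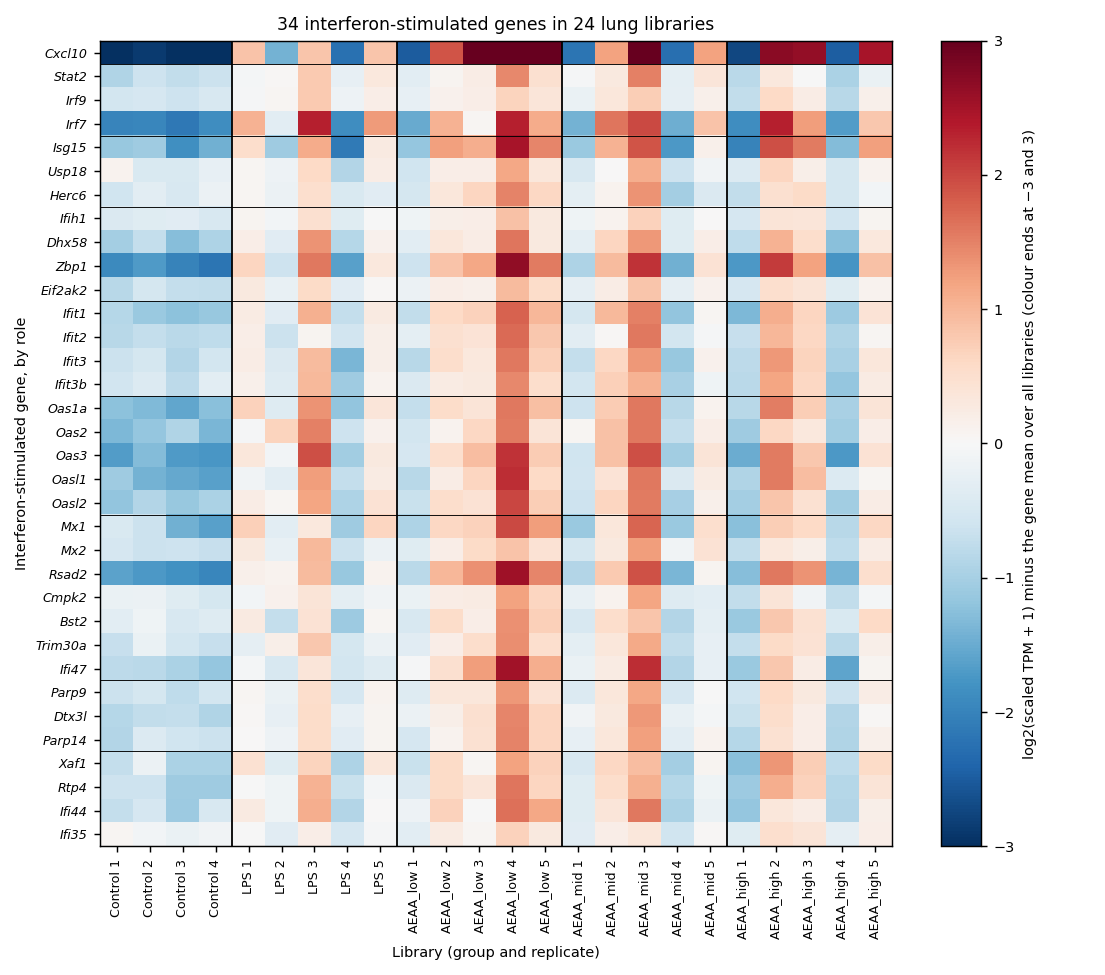
Each cell shows log2(scaled TPM + 1) of one of the 34 interferon-stimulated genes (rows, by role) in one of the 24 libraries (columns, by group and replicate) minus the gene's mean over all libraries, with red above and blue below. Low dose replicate 4 and mid dose replicate 3 are red for nearly all genes, and the 7 challenged libraries low in Cxcl2 are mostly blue, as the 4 controls are.

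LPS alone against control gave fewer calls. At an adjusted p under 0.05, 5 of the 34 genes rose and none fell, where 13.8% of all genes tested rose and 14.2% fell, so the share of members called (Oas2, Eif2ak2, Oas3, Oasl1 and Irf9) was close to that background. The median log2 fold change of the members was 0.77, against 0.00 for all genes tested, and 33 of 34 estimates were above 0. In 17 members all 5 LPS libraries lay above all 4 control libraries, where 14.2% of all genes tested did, and none lay wholly below, where 13.5% did. An unadjusted p under 0.05 was reached by 15 members. The 5 calls became 0 without control replicate 1 or 4 or LPS replicate 3, 1 without control replicate 3 or LPS replicate 1, 2 without control replicate 2 or LPS replicate 5, and 12 without LPS replicate 4. Without the 7 challenged libraries low in Cxcl2, which takes LPS replicates 2 and 4 out of this comparison and 5 extract libraries out of the shared estimate of spread, 27 of the 34 rose, where 24.2% of all genes tested did. Here too the libraries were set aside for their response, so the count is no independent support. With the TPM as deposited 32 rose, but 56.2% of all genes rose with them and the median of all genes moved to 0.55.

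**Figure D2:**
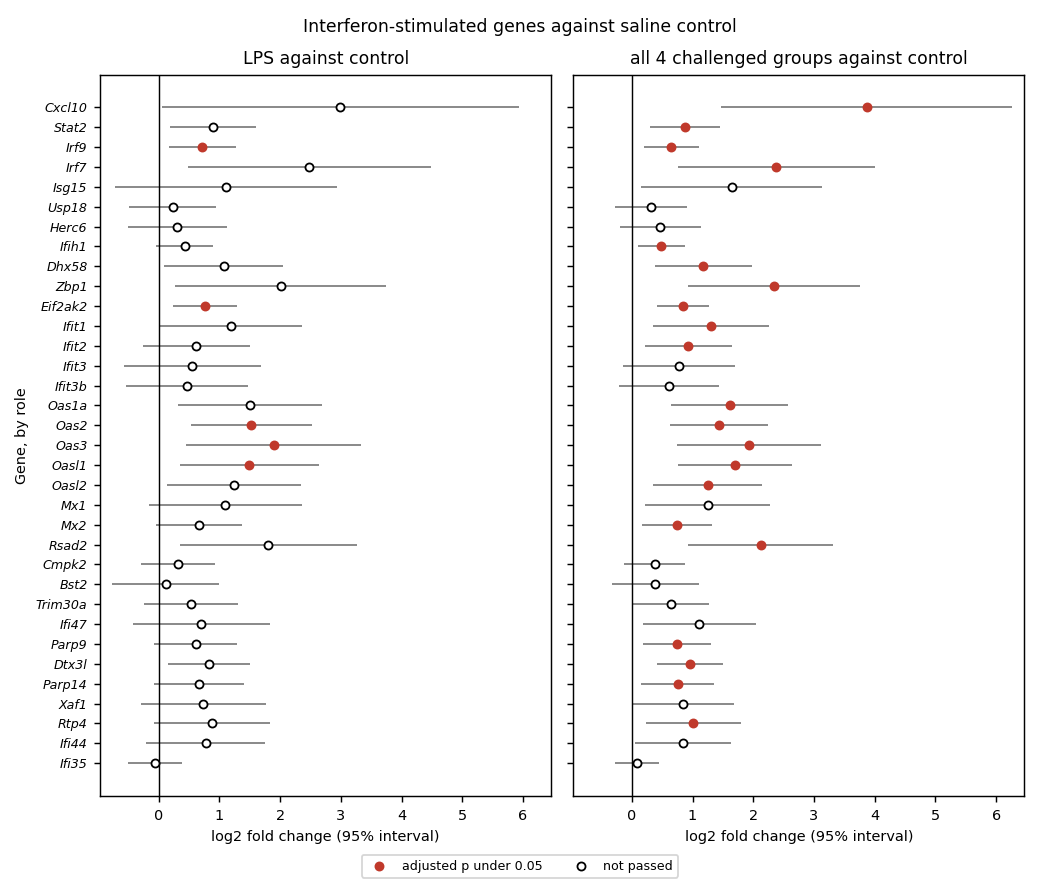
Points are log2 fold changes of scaled TPM with 95% intervals for the 34 interferon-stimulated genes, ordered by role, for LPS against control (left) and all 4 challenged groups against control (right). Filled points passed at an adjusted p under 0.05, 5 genes on the left and 21 on the right.

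Cxcl10 encodes an interferon-induced chemokine that attracts T and NK cells through CXCR3. In replicate order, which holds for all lists of values here, it was at 1.79, 3.47, 2.12 and 2.92 scaled TPM in control lungs and at 58.0, 11.3, 56.9, 5.91 and 57.8 after LPS alone. In the extract groups it was at 4.84, 120.0, 355, 547 and 275 (low dose), 6.20, 74.3, 365, 5.84 and 75.0 (mid dose) and 3.90, 214, 204, 4.91 and 182 (high dose). All 20 challenged libraries lay above control, and each group held low libraries and high ones with none between 11.3 and 56.9. The log2 fold change was 3.87 ± 1.15 (SE; adjusted p = 0.0137) for all challenged groups, the largest among the 34, and 2.99 ± 1.41 (SE; adjusted p = 0.113) for LPS alone.

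Among the signalling genes, Irf7 encodes the transcription factor that amplifies interferon production. It was at 15.1, 15.2, 13.4 and 16.4 scaled TPM in control lungs and at 129.97, 49.6, 318, 16.4 and 151 after LPS alone. At the 3 doses it was at 21.2, 129, 64.8, 317 and 136 (low dose), 22.8, 189.9, 250.2, 21.8 and 114 (mid dose) and 16.5, 317, 149.7, 18.7 and 109 (high dose). LPS replicate 4 and high dose replicate 1 were barely above the highest control, whereas LPS replicate 3, low dose replicate 4 and high dose replicate 2 lay between 317 and 318. Its log2 fold change was 2.38 ± 0.78 (SE; adjusted p = 0.0224) for all challenged groups and 2.48 ± 0.96 (SE; adjusted p = 0.0576) for LPS alone. Irf9, the DNA-binding partner of ISGF3, was at 29.7, 30.6, 28.3 and 31.4 in control and at 42.9, 46.1, 77.0, 39.5 and 50.7 after LPS, with no overlap. Among mice given extract Irf9 was at 37.3, 48.0, 50.8, 71.1 and 57.2 (low dose), 38.4, 55.6, 74.4, 36.2 and 49.2 (mid dose) and 26.1, 67.7, 51.7, 24.4 and 48.9 (high dose), where high dose replicates 1 and 4 lay below all controls and every other library above them. Irf9 rose after LPS alone by a log2 fold change of 0.71 ± 0.27 (SE; adjusted p = 0.0489) and by 0.65 ± 0.22 (SE; adjusted p = 0.0238) over all challenged groups. Stat2, the ISGF3 subunit specific to interferon receptor signalling, ranged from 13.3 to 16.5 in control and from 12.9 to 75.2 in challenged libraries, and changed by 0.87 ± 0.28 (SE; adjusted p = 0.0195) over all challenged groups.

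The ISG15 system tags proteins with a ubiquitin-like modifier and includes its own brake. Isg15 was at 38.4, 40.4, 23.0 and 31.1 scaled TPM in control lungs and at 123, 40.2, 185, 18.8 and 103 after LPS alone. In the extract groups it was at 37.4, 201, 184, 477 and 236 (low dose), 39.2, 177, 317, 25.1 and 95.3 (mid dose) and 20.6, 331, 253, 34.3 and 202 (high dose). Exactly 13 of the 20 challenged libraries exceeded the highest control, and the 7 that did not were the libraries low in Cxcl2. The log2 fold change of Isg15 was 1.64 ± 0.72 (SE; adjusted p = 0.0742) over all challenged groups and 2.38 ± 0.88 (SE; adjusted p = 0.0499) at the low dose against control. Usp18, the protease that removes ISG15 and dampens the receptor, was at 32.3, 21.6, 21.7 and 25.1 in control and 31.1, 27.0, 45.7, 15.9 and 35.0 after LPS. With extract, Usp18 was at 19.6, 34.7, 34.6, 68.1 and 38.4 (low dose), 21.3, 30.5, 65.0, 19.3 and 27.7 (mid dose) and 22.3, 47.4, 34.1, 20.7 and 32.2 (high dose). Its groups overlapped throughout: 9 of 20 challenged libraries exceeded the highest control, control replicate 1, and the log2 fold change over all challenged groups was 0.32 ± 0.28 (SE; adjusted p = 0.386). Herc6, the mouse ISG15 ligase, exceeded the highest control in 11 of 20, with a log2 fold change of 0.47 ± 0.32 (SE; adjusted p = 0.251).

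All 4 sensors of foreign nucleic acid rose over the challenged groups. Zbp1, a sensor of Z-form nucleic acid that can trigger cell death, was at 7.33, 8.63, 6.82 and 5.88 scaled TPM in control and 48.3, 19.4, 93.1, 9.11 and 38.2 after LPS alone, without overlap. In mice given extract its level was 19.4, 56.1, 69.1, 198 and 90.9 (low dose), 15.4, 59.3, 139, 10.5 and 41.5 (mid dose) and 8.42, 132, 71.1, 8.21 and 56.3 (high dose). High dose replicates 1 and 4 were the 2 challenged libraries inside the control range. Zbp1 rose over all challenged groups by a log2 fold change of 2.34 ± 0.68 (SE; adjusted p = 0.0123), and its estimate for LPS alone was 2.01 ± 0.84 (SE; adjusted p = 0.0749). Eif2ak2 encodes PKR, the kinase that halts translation on double-stranded RNA. It was at 7.02, 9.03, 7.74 and 7.68 in control, 16.5, 11.2, 20.5, 10.4 and 13.7 after LPS, and 11.7, 15.4, 15.1, 26.8 and 19.97 (low dose), 10.9, 15.7, 24.8, 10.98 and 14.8 (mid dose) and 9.21, 19.6, 17.9, 10.2 and 14.5 (high dose). No challenged library reached down to the control values. Eif2ak2 had the smallest adjusted p of the 34 over all challenged groups at 0.84 ± 0.21 (SE; adjusted p = 0.0044), and 0.77 ± 0.25 (SE; adjusted p = 0.0286) for LPS alone.

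Ifih1, which encodes the RNA sensor MDA5, was at 10.2, 10.8, 11.05 and 9.80 scaled TPM in control and 15.0, 13.3, 20.2, 10.8 and 14.0 after LPS. Among mice given extract Ifih1 was at 12.9, 16.1, 16.5, 26.6 and 17.5 (low dose), 12.9, 15.3, 23.5, 10.8 and 14.2 (mid dose) and 9.62, 18.7, 18.5, 9.20 and 15.0 (high dose). LPS replicate 4, mid dose replicate 4 and high dose replicates 1 and 4 did not exceed the highest control, and the log2 fold change over all challenged groups was 0.48 ± 0.19 (SE; adjusted p = 0.0452), the smallest of the 21 that rose. Dhx58, the related regulator LGP2, ranged from 3.04 to 5.04 in control and from 3.13 to 29.2 in challenged libraries, and rose by 1.18 ± 0.38 (SE; adjusted p = 0.0214).

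IFIT proteins bind viral RNA ends and block its translation, and their genes lie in 1 cluster on chromosome 19. Ifit3 was the most abundant, at 66.1, 71.6, 55.8 and 69.8 scaled TPM in control and 121, 75.6, 199.7, 39.6 and 117 after LPS. After extract and LPS it was at 58.0, 148, 129, 312 and 169 (low dose), 62.4, 160.0, 254, 46.7 and 112 (mid dose) and 59.5, 256, 165, 52.4 and 131 (high dose). It exceeded the highest control in 14 of 20 challenged libraries, and its log2 fold change over all challenged groups was 0.78 ± 0.44 (SE; adjusted p = 0.165). Ifit3b is a near copy of Ifit3, so reads may have been divided between them, and its estimate was 0.62 ± 0.39 (SE; adjusted p = 0.22). Ifit1 was at 12.5, 10.3, 9.44 and 10.1 in control and 28.4, 18.5, 50.6, 14.0 and 28.4 after LPS, without overlap. At the 3 doses Ifit1 was at 13.7, 35.9, 38.8, 82.4 and 47.9 (low dose), 16.1, 47.5, 69.4, 9.75 and 24.5 (mid dose) and 8.71, 51.5, 37.2, 10.6 and 31.7 (high dose). Mid dose replicate 4 and high dose replicates 1 and 4 overlapped control. Ifit1 rose by 1.31 ± 0.46 (SE; adjusted p = 0.0304) and Ifit2, which was above all controls in 19 of 20 challenged libraries, by 0.93 ± 0.34 (SE; adjusted p = 0.0382).

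Of the 5 OAS family genes 3 rose after LPS alone (Oas2, Oas3 and Oasl1), calls that did not outlast leaving out control replicate 1 or 4 or LPS replicate 3, and all 5 rose over all challenged groups. No test compared the family with the other roles. OAS enzymes make the short oligoadenylate messenger that activates RNase L, an activity that OASL1 lacks. Oas1a was at 7.81, 7.17, 5.95 and 7.66 scaled TPM in control and 32.2, 14.8, 51.2, 8.04 and 25.6 after LPS. With extract it was at 11.6, 29.4, 25.9, 60.2 and 37.2 (low dose), 12.3, 34.01, 61.0, 10.5 and 21.1 (mid dose) and 10.6, 58.7, 33.4, 9.44 and 25.8 (high dose). Every challenged library exceeded control, although LPS replicate 4 did so narrowly, and the log2 fold change was 1.61 ± 0.47 (SE; adjusted p = 0.0116) over all challenged groups and 1.51 ± 0.57 (SE; adjusted p = 0.0524) for LPS alone. Oasl1, a translational brake on Irf7, was at 2.84, 1.98, 1.74 and 1.57 in control and 6.46, 5.41, 18.1, 3.85 and 8.49 after LPS. It was at 3.51, 8.35, 11.4, 36.3 and 11.01 (low dose), 4.33, 9.58, 23.1, 4.95 and 8.43 (mid dose) and 3.30, 22.4, 14.2, 4.97 and 7.31 (high dose). Groups did not overlap, and Oasl1 rose after LPS alone (1.49 ± 0.55 (SE; adjusted p = 0.0478)) and over all challenged groups (1.70 ± 0.45 (SE; adjusted p = 0.00691)).

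Oasl2, the most abundant of the family, was at 25.7, 31.8, 26.5 and 30.3 scaled TPM in control and 70.2, 61.9, 138, 31.1 and 80.5 after LPS, where replicate 4 lay inside the control range. In the extract groups it was at 37.0, 85.9, 80.4, 242 and 99.999 (low dose), 38.1, 93.7, 179, 29.3 and 66.0 (mid dose) and 29.1, 106, 82.8, 28.2 and 69.8 (high dose). Its log2 fold change was 1.25 ± 0.43 (SE; adjusted p = 0.0289) over all challenged groups. Oas2 ranged from 1.61 to 2.62 in control and from 3.39 to 18.3 after LPS alone, and rose by 1.53 ± 0.48 (SE; adjusted p = 0.0219), the smallest adjusted p of the 34 in that comparison. Oas3 ranged from 0.467 to 0.982 in control and from 1.38 to 17.8 after LPS, and rose by 1.89 ± 0.69 (SE; adjusted p = 0.0461). At such low levels the added 1 TPM makes the fitted fold smaller than the ratio of the values.

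Of the other antiviral effectors, Rsad2, which encodes viperin, was at 2.35, 2.08, 1.88 and 1.60 scaled TPM in control and 10.3, 9.85, 18.5, 3.59 and 9.93 after LPS alone. At the 3 doses it was at 4.80, 19.2, 25.3, 58.4 and 26.8 (low dose), 4.52, 16.5, 37.0, 2.90 and 9.65 (mid dose) and 3.16, 29.2, 24.7, 2.86 and 13.4 (high dose). No challenged library overlapped control, and Rsad2 rose by 2.12 ± 0.57 (SE; adjusted p = 0.00782) over all challenged groups. Its neighbour on chromosome 12, Cmpk2, a mitochondrial nucleotide kinase, ranged from 9.21 to 12.0 in control and 7.75 to 32.5 in challenged libraries, with a log2 fold change of 0.37 ± 0.24 (SE; adjusted p = 0.222). Bst2 encodes tetherin, which holds budding virus at the cell surface, and had the highest mean of the 34 at 255 scaled TPM. It was at 186, 209, 166 and 177 in control and 279.5, 139.9, 311, 107 and 239 after LPS. Among mice given extract Bst2 was at 164, 337, 267, 597 and 382 (low dose), 166, 332, 412, 126 and 187 (mid dose) and 107, 403, 317, 166 and 349 (high dose). LPS replicates 2 and 4 lay below every control and the other 3 above, and the log2 fold change was 0.11 ± 0.42 (SE; adjusted p = 0.859) for LPS alone and 0.39 ± 0.34 (SE; adjusted p = 0.379) over all challenged groups.

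Ifi47 encodes a GTPase that responds strongly to interferon gamma. It was at 26.9, 26.2, 23.7 and 20.4 scaled TPM in control and 45.1, 33.1, 60.6, 31.7 and 35.5 after LPS. At the 3 doses it was at 46.0, 65.3, 114, 275 and 100.3 (low dose), 40.6, 55.4, 222, 24.9 and 39.2 (mid dose) and 21.3, 82.6, 54.7, 14.9 and 49.4 (high dose). Low dose replicate 4 and mid dose replicate 3 stood far above the rest. The log2 fold change of Ifi47 was 1.11 ± 0.45 (SE; adjusted p = 0.0535) over all challenged groups. Mx2 rose by 0.74 ± 0.28 (SE; adjusted p = 0.0411), whereas Mx1, an antiviral GTPase gene that is defective in C57BL/6 mice, had an estimate of 1.25 ± 0.50 (SE; adjusted p = 0.0514) with levels from 0.779 to 20.4. Trim30a, which restrains Toll-like receptor signalling, was above the highest control in 12 of 20 challenged libraries, with an estimate of 0.64 ± 0.31 (SE; adjusted p = 0.102).

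PARP9 and DTX3L act as a complex that supports interferon-driven transcription, and their genes lie side by side on chromosome 16 with Parp14. Parp9 was at 18.3, 19.7, 16.6 and 19.5 scaled TPM in control and 30.1, 24.99, 41.9, 19.9 and 31.0 after LPS. In mice given extract its level was 21.8, 36.9, 36.8, 72.5 and 39.6 (low dose), 21.5, 36.7, 66.0, 20.2 and 28.7 (mid dose) and 18.7, 44.1, 35.3, 18.4 and 34.2 (high dose). High dose replicates 1 and 4 were the 2 challenged libraries inside the control range of Parp9. Parp14, which modifies proteins with ADP-ribose, was at 12.5, 17.6, 15.3 and 14.6 in control and 23.7, 21.1, 35.1, 18.6 and 25.2 after LPS, without overlap. In the extract groups Parp14 was at 16.5, 25.5, 33.0, 68.0 and 37.4 (low dose), 19.8, 30.0, 56.4, 18.8 and 25.3 (mid dose) and 12.5, 32.8, 27.5, 12.2 and 26.4 (high dose), and low dose replicate 1 and high dose replicates 1 and 4 overlapped control. Over all challenged groups the log2 fold changes were 0.74 ± 0.27 (SE; adjusted p = 0.0355) for Parp9, 0.96 ± 0.26 (SE; adjusted p = 0.00891) for Dtx3l and 0.76 ± 0.29 (SE; adjusted p = 0.0436) for Parp14.

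The remaining 4 genes were Xaf1, Rtp4, Ifi44 and Ifi35. Xaf1, which promotes apoptosis by opposing XIAP, was at 44.4, 64.9, 37.9 and 37.8 scaled TPM in control and 102, 57.1, 117, 38.5 and 93.8 after LPS. After extract and LPS it was at 46.2, 111, 76.7, 173 and 119.9 (low dose), 52.3, 114, 140.5, 35.7 and 78.8 (mid dose) and 30.4, 188, 125, 43.2 and 111 (high dose). It exceeded the highest control in 13 of 20 challenged libraries, and the log2 fold change over all challenged groups was 0.84 ± 0.40 (SE; adjusted p = 0.102). Rtp4, a receptor transporter that also limits flavivirus replication, was at 39.4, 39.6, 28.8 and 28.9 in control and 60.6, 55.7, 128, 38.4 and 58.8 after LPS. Among mice given extract Rtp4 was at 45.1, 91.5, 79.9, 191 and 96.4 (low dose), 47.2, 89.6, 131, 33.7 and 56.0 (mid dose) and 28.3, 131, 99.7, 33.3 and 81.1 (high dose). LPS replicate 3 stood apart from its group, and Rtp4 rose by 1.01 ± 0.38 (SE; adjusted p = 0.0392) over all challenged groups.

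Ifi44 ranged from 3.52 to 5.88 in control and 3.35 to 29.3 in challenged libraries, with an estimate of 0.84 ± 0.38 (SE; adjusted p = 0.086). Ifi35 was the member nearest to no difference. It ranged from 58.8 to 69.8 in control and from 44.0 to 108 in challenged libraries, and all 7 challenged libraries low in Cxcl2 lay below its lowest control. Its log2 fold change was 0.09 ± 0.17 (SE; adjusted p = 0.694) over all challenged groups and −0.07 ± 0.21 (SE; adjusted p = 0.835) for LPS alone, and the latter turned to 0.59 (adjusted p = 0.0068) with the TPM as deposited.

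**Figure D3:**
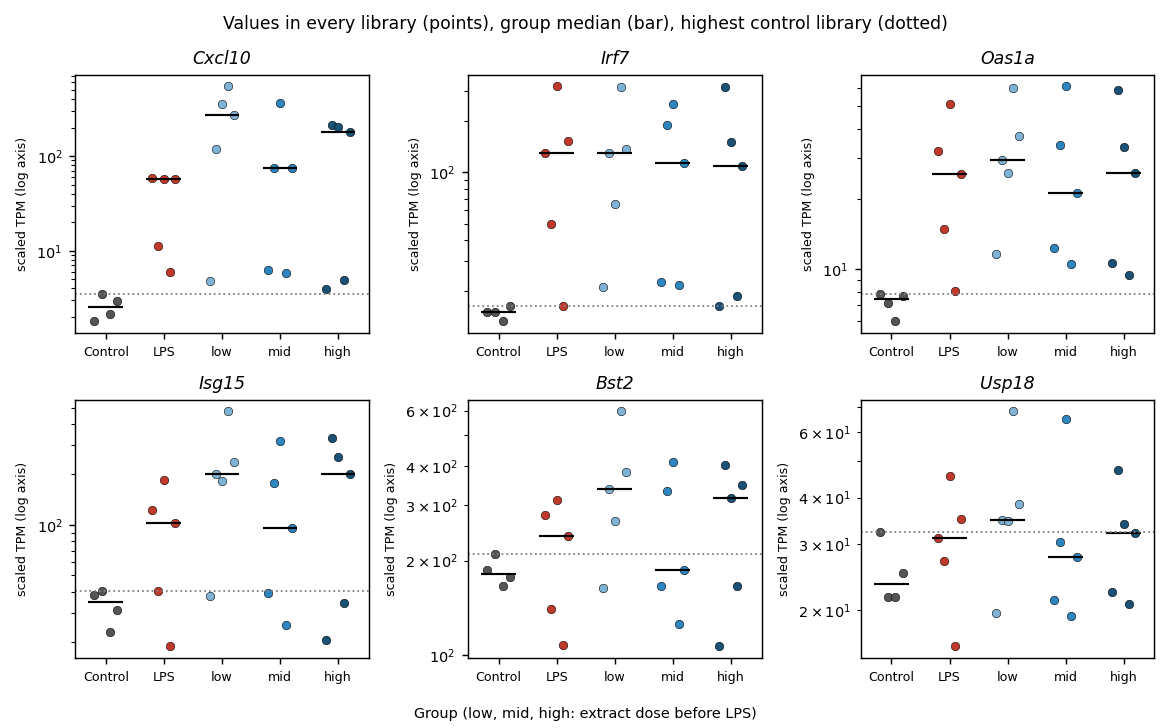
Scaled TPM (log axis) of 6 interferon-stimulated genes in every library by group, with the group median as a bar and the highest control library as a dotted line. Cxcl10, Irf7 and Oas1a lie above the dotted line in all 20 challenged libraries, Isg15 in 13, Bst2 in 12 and Usp18 in 9.

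None of the 34 genes passed in limma when any dose of extract before LPS was compared with LPS alone. The low dose gave 0 calls among the members, where 1.74% of all genes tested rose and 0.550% fell, with 1 member (Ifi47) at an unadjusted p under 0.05. All 34 low dose estimates were above 0, with a median log2 difference of 0.46 against −0.01 for all genes tested. The 34 estimates come from the same libraries and are not independent of one another. Without low dose replicate 4 and mid dose replicate 3, the 2 libraries highest in the members, 30 of the 34 stayed above 0, with a median of 0.21. The mid dose gave 0 calls (0.00% of all genes tested rose or fell) and no unadjusted p under 0.05, with a median of 0.07. Without the same 2 libraries, 4 of the 34 mid dose estimates kept their sign, and the median was −0.20. The high dose also gave 0 calls, where 5.67% of all genes rose and 3.27% fell, again with no unadjusted p under 0.05, and a median of −0.05 with 15 estimates above 0 and 19 below. A joint test of all 3 doses called no member either, where 7.20% of all genes passed, and gave no unadjusted p under 0.05. The compared groups overlapped for every member at every dose, while 3.11%, 0.213% and 2.36% of all genes tested lay wholly above LPS alone at the low, mid and high dose and 1.87%, 0.157% and 1.58% wholly below. With the TPM as deposited no member passed either, where 1.23%, 0.00% and 2.05% of all genes rose, 9.38%, 0.00% and 25.5% fell and 22.2% passed the joint test. The member medians were then 0.24, 0.02 and −0.34 on the log2 scale, against −0.20, −0.04 and −0.27 for all genes. With scaled TPM but without the 7 libraries low in Cxcl2, the member medians were 0.40, 0.26 and 0.12. In that setting 33, 31 and 21 of the 34 estimates kept their sign at the low, mid and high dose. Those libraries were set aside for their response, so these medians describe the libraries left.

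The intervals show how much these comparisons could not resolve. For Cxcl10 the log2 difference from LPS alone was 2.22 (95% interval −0.55 to 4.99) at the low, 0.52 (95% interval −2.25 to 3.29) at the mid and 0.76 (95% interval −2.01 to 3.52) at the high dose. Isg15 differed by 1.27 (95% interval −0.45 to 2.99) at the low and 0.55 (95% interval −1.17 to 2.27) at the high dose. Ifi47 differed by 1.29 (95% interval 0.22 to 2.36) at the low dose (adjusted p = 0.214), the only interval of the 34 that left out 0. At the high dose the lowest estimates were Oas2 at −0.53 (95% interval −1.46 to 0.41) and Stat2 at −0.49 (95% interval −1.16 to 0.18). Irf9 at the low dose had the estimate nearest 0 of the 34, at 0.05 (95% interval −0.47 to 0.57). Missing the threshold does not show that expression was alike with and without extract.

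**Figure D4:**
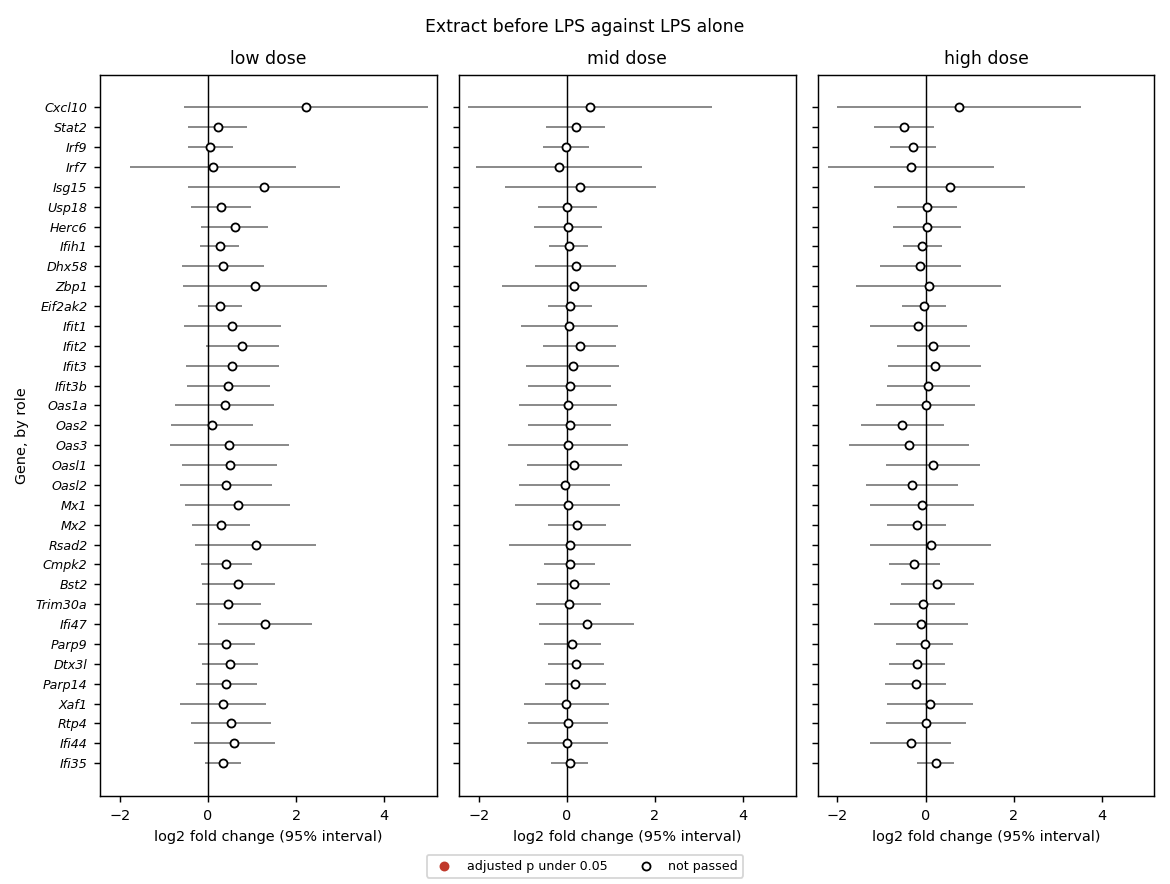
Points are log2 fold changes of scaled TPM with 95% intervals for each extract dose before LPS against LPS alone, for the 34 interferon-stimulated genes by role. All points are open (not passed), all low dose points lie right of 0, and the widest intervals are those of Cxcl10.

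Left without the 7 libraries low in Cxcl2, which leaves 3 LPS, 4 low, 3 mid and 3 high dose libraries, Cxcl10 was the single member that passed against LPS alone. Its log2 difference was then 2.28 at the low dose (adjusted p = 0.0237) and 1.78 at the high dose (adjusted p = 0.0297), where 3.79% and 14.1% of all genes rose, and its joint test had an adjusted p = 0.0278. The joint test called 19.3% of all genes. The mid dose difference was 1.13 (adjusted p = 0.904), where 0.00561% of all genes rose. The 3 LPS libraries kept were at 58.0, 56.9 and 57.8 scaled TPM, all below the 4 low dose (120 to 547), 3 mid dose (74.3 to 365) and 3 high dose libraries kept (182 to 214). LPS replicates 1 and 3 among them were high in skeletal muscle markers, and LPS replicate 5 was not. With all libraries these adjusted p were 0.434 and 0.790, under 7 further settings 0.313 to 0.639 and 0.723 to 0.917, and with 1 library left out at a time 0.165 to 0.630 and 0.462 to 0.962. This gene was picked out after its values were seen, and the libraries were set aside by a chemokine of the same response, so the difference is a description.

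Each dose was also set against control, and these comparisons share the control libraries with one another and with LPS alone. At the low dose 24 of 34 members rose (13.1% of all genes tested did), 9 did in the mid dose group (14.2%) and 2 in the high dose group (9.42%), Oasl1 and Eif2ak2. None fell, where 12.6%, 14.1% and 9.09% of all genes did. Median log2 fold changes were 1.34, 0.91 and 0.75, and 22, 16 and 6 members had no overlap with control (14.8%, 16.2% and 7.64% of all genes), while no member lay wholly below it (13.8%, 15.2% and 7.18%). With the TPM as deposited 34, 32 and 18 members rose, where 44.4%, 53.3% and 37.5% of all genes did. The difference between these counts was not tested beyond the comparisons with LPS alone. Without low dose replicate 4 and mid dose replicate 3, 10 members rose at the low and 5 at the mid dose. These 2 libraries were chosen for the highest member levels, so lower counts were built into the choice. Among all genes tested, those that rose went from 2336 to 1145 at the low dose and from 2533 to 2040 at the mid dose. With 1 library left out, the low dose count fell to 9 (control replicate 1 or 3, low dose replicate 5), 11 (control replicate 4) or 7 (low dose replicate 4). The mid dose count became 0 without mid dose replicate 3, 2 to 4 without any 1 control or mid dose replicate 2 or 5, 14 without replicate 1 and 15 without replicate 4. At the high dose it became 0 without any 1 control or high dose replicate 2, 3 or 5, 8 without replicate 1 and 9 without replicate 4. Without the libraries low in Cxcl2, 34, 30 and 29 members rose at the low, mid and high dose, where 22.2%, 23.2% and 26.7% of all genes did. Those libraries were set aside for their response, so these counts describe the libraries left and are no independent support.

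A score per library, the mean over the 34 genes of log2(scaled TPM + 1) centred on each gene's mean, shows how libraries of one group differed. It was −0.914, −0.805, −1.06 and −0.990 in control and 0.218, −0.268, 0.885, −0.846 and 0.173 after LPS alone. In the extract groups the score was −0.572, 0.476, 0.558, 1.68 and 0.799 (low dose), −0.524, 0.521, 1.43, −0.822 and 0.111 (mid dose) and −1.02, 0.994, 0.606, −0.980 and 0.356 (high dose). Group medians were −0.95 in control, 0.17 after LPS, and 0.56, 0.11 and 0.36 at the low, mid and high dose, and the 4 challenged groups overlapped one another.

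Cxcl2, the neutrophil chemokine set beside the score, was at 0.216, 0.236, 0.356 and 0.0779 scaled TPM in control and at 240.5, 1.07, 40.1, 0.0712 and 161 after LPS alone. The extract groups held 0.598, 281, 334, 280.5 and 295 (low dose), 0.461, 428, 133, 0.314 and 223 (mid dose) and 0.409, 198, 359, 0.386 and 352 (high dose). The 13 libraries with Cxcl2 of 40.1 or more were the 13 with the highest scores, and the 7 others had scores from −1.02 to −0.27. Of these 7, the high dose pair lay within the control range, as did LPS replicate 4 and mid dose replicate 4, low dose replicate 1 and mid dose replicate 1 lay above it at −0.57 and −0.52, and LPS replicate 2 was nearer to the lowest of the 13 (0.11) than to the highest control (−0.80). Among the 13 the order of the score was not that of Cxcl2: LPS replicate 3 had the lowest Cxcl2 of them and the fourth highest score, and mid dose replicate 2 had the highest Cxcl2 and the eighth highest score. Since the libraries fall into separate clusters, no correlation is given.

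**Figure D5:**
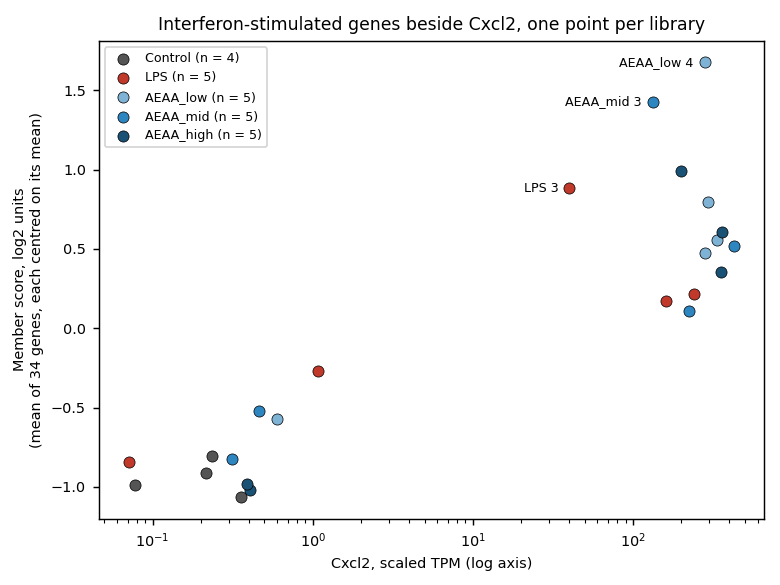
Each point is a library, with Cxcl2 in scaled TPM on a log axis and the mean centred log2 level of the 34 interferon-stimulated genes on the vertical axis, coloured by group. Controls and 7 challenged libraries lie at Cxcl2 under 1.1 with scores below 0, and 13 challenged libraries lie at 40.1 or more with scores from 0.11 to 1.68.

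The members differed in how far the 7 libraries low in Cxcl2 stood from control. For the 6 genes above control in all challenged libraries these 7 were also above control, at 3.90 to 11.3 scaled TPM for Cxcl10 against at most 3.47, 8.04 to 14.8 for Oas1a against at most 7.81, and 2.86 to 9.85 for Rsad2 against at most 2.35. For 7 genes (Isg15, Usp18, Herc6, Ifit3b, Bst2, Xaf1 and Ifi35) none of the 7 libraries exceeded the highest control. The remaining 21 had some above it and some not. Counted by library, 6 members exceeded the highest control in high dose replicate 4, 8 in high dose replicate 1, 17 in LPS replicate 4 and mid dose replicate 4, 22 in low dose replicate 1 and mid dose replicate 1, and 27 in LPS replicate 2. In the other 13 libraries 28 to 34 members exceeded it. The highest value of 27 members was in low dose replicate 4, of 4 (Stat2, Oas1a, Oas2 and Mx2) in mid dose replicate 3, of 2 (Irf7 and Irf9) in LPS replicate 3 and of Xaf1 in high dose replicate 2.

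Of the 13 members with a core in the window 8 rose over all challenged groups, of the 12 matched members without one 6 rose, and of the 9 without a window 7 rose, with median log2 fold changes of 0.87, 0.89 and 1.01. Of the 6 members above control in all challenged libraries, 4 held a core (Cxcl10, Eif2ak2, Oas1a and Rsad2) and 2 did not (Irf7 and Oasl1). These are counts of letters in a window, with no test.

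Upstream of the members, transcripts of the interferons themselves were almost absent at 8 h. Of 17 type I interferon genes, 13 were listed at 0 in all 24 libraries, and both type III genes, Ifnl2 and Ifnl3, were too. Ifnb1, the first type I interferon induced through TLR4, was listed at 0 in 23 libraries and at 0.139 scaled TPM in low dose replicate 4. Ifng, the interferon of T and NK cells, was the 1 ligand of 20 that could be tested. It was at 0, 0.211, 0.145 and 0.363 scaled TPM in control and 1.63, 1.16, 0.772, 0.269 and 0.579 after LPS alone. Ifng in the extract groups was at 0.552, 1.19, 3.37, 9.16 and 2.21 (low dose), 0.275, 1.07, 5.85, 0.346 and 0.133 (mid dose) and 1.39, 2.47, 2.05, 0.0627 and 0.584 (high dose). Its highest values, 9.16 and 5.85, were in low dose replicate 4 and mid dose replicate 3, the libraries with the highest member scores, and its log2 fold change over all challenged groups was 0.94 (adjusted p = 0.0715).

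Beside the list counts that follow, 19.1% of all genes tested rose over all challenged groups and 18.7% fell. After LPS alone 13.8% rose and 14.2% fell. With the TPM as deposited 55.1% of all genes rose over all challenged groups and 56.2% after LPS alone. Of 9 receptor chains and kinases of the pathway, 6 rose over all challenged groups and none fell. The log2 fold change of the kinase Jak1 was 0.64 (adjusted p = 0.000182), and Tyk2 rose by 0.33 (adjusted p = 0.00433), Ifngr2 by 0.69 (adjusted p = 0.00664) and the receptor chain Ifnar1 by 0.67 (adjusted p = 0.00880). After LPS alone 4 of 9 rose (Ifngr1, Ifngr2, Jak1 and Tyk2), and 9 of 9 did in both comparisons with the TPM as deposited. Among further transcription factors, Irf3, which is activated by phosphorylation, fell by 0.30 (adjusted p = 0.00274) over all challenged groups. With the TPM as deposited Irf3 was higher by 0.21 (adjusted p = 0.0499), and after LPS alone its estimate was −0.20 (adjusted p = 0.0870). Of 15 sensors and adaptors 11 rose and 1 fell over all challenged groups (6 and 0 after LPS alone), and 14 rose in both comparisons with the TPM as deposited. The smallest adjusted p were those of Traf3 at 1.03 (adjusted p = 0.00109), Tlr4, the LPS receptor, at 0.92 (adjusted p = 0.00168), Sting1 at 1.19 (adjusted p = 0.00279) and Myd88 at 1.23 (adjusted p = 0.00309), and Tlr3 fell by 0.33 (adjusted p = 0.0358) but was at 0.15 (adjusted p = 0.353) with the TPM as deposited. Of 6 feedback genes 3 rose in both comparisons, Socs3, Adar and Trim25, the last with an adjusted p of 0.0753 for LPS alone under upper-quartile scaling. At the high dose against LPS alone 1 of the 36 genes in these lists that could be tested outside the ligands passed, Mavs, the adaptor of RNA sensors, which was lower by 0.36 on the log2 scale (adjusted p = 0.0469, and 0.0661 with upper-quartile scaling). With scaled TPM 3.27% of all genes tested were lower and 5.67% higher in that comparison. With the TPM as deposited 12 of the 36 were lower in it and none higher, where 25.5% of all genes were lower and 2.05% higher.

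The interferon gamma-inducible GTPases and Cxcl9, which share Ifi47's mode of induction, gave 0 of 15 calls after LPS alone. Over all challenged groups 3 of 15 were higher (Gbp6 by 1.84, Tgtp1 by 1.82 and Gbp9 by 0.76 on the log2 scale). That count was close to the 19.1% of all genes tested that rose. With the TPM as deposited 11 of 15 rose over all challenged groups, where 55.1% of all genes did. With upper-quartile scaling the adjusted p of Gbp9 was 0.0627. Their summed level was 225 to 276 scaled TPM in control. It ranged from 265 to 627 after LPS alone and from 336 to 2800, 235 to 2812 and 166 to 807 at the low, mid and high dose. At each dose 0 of the 15 passed against LPS alone. In those comparisons 1.74%, 0.00% and 5.67% of all genes tested rose and 0.550%, 0.00% and 3.27% fell. Of 9 chemokine and cytokine genes driven by NF-kB, 0 passed after LPS alone and 6 rose over all challenged groups, where 13.8% and 19.1% of all genes rose. Their median log2 fold changes were 3.14 and 4.01. Their sum was 11.2 to 17.5 scaled TPM in control and 25.9 to 1123 after LPS alone. With the TPM as deposited 2 and 9 of the 9 rose, where 56.2% and 55.1% of all genes did.

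Most neutrophil and monocyte markers rose over all challenged groups, whereas few or none passed in the other immune cell lists. The share of all genes tested that rose was 19.1% in that comparison and 13.8% after LPS alone. In bulk lung more cells of a type and more RNA per cell cannot be told apart. All 8 neutrophil markers rose over all challenged groups (7 of 8 after LPS alone), with a summed level of 164 to 231 scaled TPM in control, 449 to 11110 after LPS, and 1379 to 3918, 199 to 6933 and 217 to 12713 at the low, mid and high dose. Ly6g was at 0 in 1 library and Camp in 2. Of 7 monocyte and recruited macrophage markers 6 rose (1 after LPS alone, but 6 with the TPM as deposited), with a sum of 67.1 to 103 in control and 94.6 to 474, 150 to 645, 116 to 375 and 63.2 to 593 in the LPS, low, mid and high dose groups. None of the 3 plasmacytoid dendritic cell markers tested passed, and their list summed to 3.10 to 4.41 in control, 2.31 to 5.84 after LPS, and 4.88 to 18.6, 1.74 to 8.87 and 1.99 to 3.37 at the 3 doses, with none of its 4 markers at 0. In the 7 challenged libraries low in Cxcl2 the neutrophil sum was 199 to 1596 and in the other 13 it was 1526 to 12713. Of the alveolar macrophage markers 2 of 6 rose over all challenged groups, of the T and NK cell markers 2 of 7 and of the B cell markers 0 of 4. After LPS alone 0 of 6, 1 of 7 and 0 of 4 rose, and the T cell marker Cd3d fell. Markers of other cells rose too, 3 of 4 for fibroblasts and 2 of 5 for endothelium over all challenged groups (2 of 4 and 2 of 5 after LPS alone). At the high dose against LPS alone 2 of 4 fibroblast and 1 of 5 endothelial markers were lower, where 3.27% of all genes tested were. In that comparison 1 of 5 airway epithelial markers was higher, where 5.67% of all genes were. Cd3d was higher by 0.81 on the log2 scale at the low dose against LPS alone, where 1.74% of all genes were. It did not pass with the TPM as deposited (adjusted p = 0.0682) or upper-quartile scaling (adjusted p = 0.0517). Against control the airway epithelial markers fell, with 4 of 5 lower after LPS alone and over all challenged groups, also with the TPM as deposited. Of 6 alveolar epithelial markers 2 fell in both comparisons, Sftpc and Hopx, and none with the TPM as deposited. Their sum was 50898 to 57577 scaled TPM in control, 28695 to 41577 in the 7 challenged libraries low in Cxcl2 and 10226 to 29362 in the other 13. Skeletal muscle markers summed to 3259 in LPS replicate 1, 1984 in LPS replicate 3 and 926 in low dose replicate 5, against 23.5 to 42.3 in control. The part of these cells in the change of the 34 genes was not tested.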

How the data were processed

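Whole lung RNA of 24 mice was sequenced after TRIzol extraction and removal of ribosomal RNA, per the labels' protocols. The authors deposited TPM values per gene and library. The submitters' processing notes name HISAT2, StringTie, RSEM, DESeq2 and build GRCm39, with no versions. The roles of these tools, and whether counting used strand, are not given in the sources used here. TPM is relative to the library total, so each library was divided by its median ratio to the gene-wise geometric mean (16472 genes). Of 78298 genes, 21883 had no symbol, and 17823 with at least 1 TPM in 4 or more libraries were tested. Group means of log2(scaled TPM + 1) in all 5 groups were fitted together with limma 3.58.1 (R 4.3.3; Python 3.11.15 for promoters and figures), with a mean-variance trend, robust variance estimates and Benjamini-Hochberg adjustment over all genes tested and a threshold of 0.05. Fold changes are on this scale and understate low genes. The fit was also run on simulated data with normal noise and, for each gene, the same spread in every group. The real groups differed in spread, with an SD of the score of 0.11 in control and 0.64 to 0.93 in challenged groups. That simulation therefore cannot show how the fit performs under unequal spread. No 2 libraries were identical. The members and the gene and cell marker lists were chosen with earlier results of these data known. Values in every library are given for the 2 members of each role with the highest mean level (17 in all, with 1 in a role of 1 member), plus Eif2ak2, Oasl1 and Rsad2, added after their values were seen. Further members are named where they had 1 of the 8 smallest adjusted p of a comparison or the largest or smallest change, and the rest for completeness. Alternatives were deposited TPM, upper-quartile scaling, a pseudocount of 0.1, no filter, the compared groups alone, a replicate block and each library left out. Setting aside the 7 libraries with Cxcl2 under 2 TPM, or the 2 with the highest score, was chosen after seeing the data. One gene of the pathway lists is not reported here.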

Additional observations from a re-analysis of the deposited data

Results flagged for a closer look

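Of 95 sets of values (a gene or the score in 1 treatment group) screened for 1 library far from the rest of its group, 5 had such a library, and chance gives about 1 in 20. In the mid dose group replicate 3 was high for Cxcl10 at 365.1 scaled TPM (the next library was at 75.0), for Usp18 at 65.0 (next 30.5) and for Ifi47 at 222.1 (next 55.4). In the LPS group replicate 3 was high for Rtp4 at 127.8 scaled TPM (next 60.6). In the low dose group replicate 1 was low for Cxcl2 at 0.598 scaled TPM (next 280.5), and its Cxcl10 was 4.84.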

How the results depend on the processing

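Counts of interferon-stimulated genes that rose against control moved with the processing, while those against LPS alone were 0 in every setting that kept the libraries low in Cxcl2. With the TPM as deposited the counts were 32 for LPS, 34 for all challenged groups, 32 for the mid and 18 for the high dose, while the median of all genes moved to 0.55, 0.42, 0.50 and 0.28 on the log2 scale. Upper-quartile scaling gave 1 at the high dose. With no filter, which tests many more genes, they were 0 for LPS, 12 for all challenged groups and 9, 2 and 0 at the low, mid and high dose. Fitting the compared groups alone gave 19 for LPS, 15 at the mid and 0 at the high dose, and the cause was not tested. Without the 7 libraries low in Cxcl2 they were 27 for LPS, 34 for all challenged groups, 30 at the mid and 29 at the high dose, and 1 (Cxcl10) for the low dose against LPS, the high dose against LPS and the joint test. Without the 2 libraries with the highest score they were 10 for LPS, 10 at the low and 5 at the mid dose.

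Leaving out 1 library at a time gave 0 (without Control 1, Control 4 or LPS 3) to 12 (without LPS 4) for LPS against control, and 9 (without Control 1 or Control 3) to 25 (without high dose replicate 1) for all challenged groups. It gave 7 (without replicate 4) to 30 (without replicate 1) at the low, 0 (without replicate 3) to 15 (without replicate 4) at the mid and 0 to 9 (without replicate 4) at the high dose against control, and 0 to 0 for each dose against LPS and for the joint test. The estimate of Bst2 for LPS alone changed sign without LPS 1 (−0.01) or LPS 3 (−0.05). With the replicate number as a block the counts were 6 for LPS, 20 for all challenged groups and 25, 10 and 2 at the low, mid and high dose, and 0 against LPS. Whether the numbers pair the samples was not settled. Of 46 same-numbered pairs 20 correlated above 0.1, with a median of 0.06 against −0.01 for other pairs. Differently numbered libraries low in Cxcl2 also correlated, such as low dose replicate 1 with high dose replicate 4 (0.60), which could mask a pairing. Depth is unknown, so counting error could not be set beside any value.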
